A study of Mus musculus with 20 samples.

Results

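Tumour necrosis factor (TNF) receptors and their ligands were followed through 7 genes of mouse skeletal muscle: Tnfrsf12a, Tnfsf12, Tnfrsf11b, Eda2r, Tnfrsf1a, Tnfrsf1b and Tnfrsf21. They are 7 of 27670 genes named on the arrays, and every non-control probe carrying 1 of these names in the scanner files was taken, 12 probes in all. The set was chosen by measured differences between suspended and control soleus: Tnfrsf12a and Tnfrsf11b stood among the lowest of these differences and Eda2r among the highest, and the other genes are their ligand or relatives in the family. Soleus differences of these genes are therefore given as a description, without a test, and so are differences between the muscles, which share those arrays. The difference of suspended from control gastrocnemius comes from other arrays and was tested. Those arrays are from the same mice, and the test took its spread from the arrays of both muscles. Its p is therefore not fully independent of the choice.

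Male ICR mice, 6 months old and from an outbred stock, were either suspended by the tail for 24 h at a head-down tilt of 45 degrees, so that the hind limbs carried no load (hind-limb suspension, HLS), or walked freely in their cages for 24 h as controls. Whole soleus, whose many slow fibres hold posture, and whole gastrocnemius, in which fast fibres prevail, were taken from each mouse. The groups are soleus HLS, soleus control, gastrocnemius HLS and gastrocnemius control, each with 5 arrays from 5 animals, and both muscles of an animal carry the same number within an arm. The labels name no transgene or drug treatment in any group, and 24 h is the only time sampled.

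In this family, a ligand on or shed from one cell binds a receptor whose inner tail recruits TRAF adaptors or, in some members, death domain proteins, and these lead to NF-kB, to MAP kinases or to cell death. TWEAK, encoded by Tnfsf12, binds the receptor Fn14, encoded by Tnfrsf12a, which has a short tail with a TRAF-binding site and no death domain; Fn14 is described as scarce in resting muscle, rises after injury or denervation, and its activation is known to promote loss of muscle mass in mice. Osteoprotegerin (Tnfrsf11b) is a secreted decoy receptor for RANKL and TRAIL, Eda2r (XEDAR) binds the A2 form of ectodysplasin, Tnfrsf1a and Tnfrsf1b are the receptors of TNF, and Tnfrsf21 is death receptor 6.

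Levels are log2 of the spot intensity over the 75th percentile of its array, so 0 is the intensity at that percentile, and levels of different probes were not set against each other. A change is a log2 difference ± SE from limma fitted over all 25292 measured genes, and adjusted p is after Benjamini-Hochberg over them with a threshold of 0.05. Of the probes on an array, 80.5% to 93.0% were well above background, and 5 arrays a group limit the precision. The fibre genes Tnni1 and Myh4 followed the labels with exceptions, while the fast troponin gene Tnni2 ran against the labels. Tnni2 stood at 8.98 or higher on every soleus array, and at 8.93 or lower on every gastrocnemius array. The slow troponin gene Tnni1 stood at 6.72 to 7.35 on 4 soleus HLS arrays but at 4.15 on soleus HLS 1, against 6.85 to 7.34 on soleus control arrays, and at 2.56 to 3.68 on gastrocnemius HLS arrays, against 2.95 to 4.18 on gastrocnemius control arrays. The fast myosin gene Myh4, between 8.35 and 8.96 on every gastrocnemius array, reached 9.47 on soleus HLS 1, 8.51 on soleus HLS 4, 8.37 on soleus control 1 and 7.90 on soleus control 4, and lay between 4.21 and 5.99 on the other 6 soleus arrays. Without soleus HLS 1 the soleus difference was -3.30 for Tnfrsf12a, -2.33 for Tnfrsf11b and 2.05 for Eda2r. Slides and scan days were nearly parted by group: only slide 5 and scan day 2 held both soleus arms, and only slide 2 and scan day 1 held both gastrocnemius arms, each of the last 2 with a single HLS array. No slide held both muscles. Gastrocnemius controls were scanned on day 1 and soleus controls on day 2. Muscle differences therefore cannot be told apart from slide, nor those of controls from scan day.

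The windows around the start sites of Tnfrsf12a and Eda2r are shown because these genes passed the gastrocnemius test in opposite directions. Each window runs from 250 bases before to 50 bases after the start, on the strand of the gene, from RefSeq on GRCm38.p6, and capitals mark the motifs found. RefSeq's table held 5 of the 7 genes. The Tnfrsf12a window is chr17:23677400-23677699 on the minus strand and the Eda2r window is chrX:97377160-97377459 on the minus strand.

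Tnfrsf12a: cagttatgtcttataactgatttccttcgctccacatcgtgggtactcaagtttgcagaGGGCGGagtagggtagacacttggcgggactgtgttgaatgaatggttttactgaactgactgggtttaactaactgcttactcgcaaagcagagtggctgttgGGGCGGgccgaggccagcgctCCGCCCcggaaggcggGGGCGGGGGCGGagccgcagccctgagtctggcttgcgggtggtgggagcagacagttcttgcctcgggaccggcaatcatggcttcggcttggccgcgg
Eda2r: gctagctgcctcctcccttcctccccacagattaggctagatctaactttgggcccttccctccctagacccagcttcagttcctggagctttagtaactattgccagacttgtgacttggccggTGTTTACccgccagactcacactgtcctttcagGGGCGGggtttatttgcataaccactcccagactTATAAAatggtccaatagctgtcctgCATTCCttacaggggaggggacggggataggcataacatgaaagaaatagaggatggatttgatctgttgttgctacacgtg

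The Tnfrsf12a window has 59.7% G and C and holds 5 GC boxes (GGGCGG; all motifs were searched on both strands), which begin 191, 87, 66, 50 and 44 bases before the start. The Eda2r window has 50.3% G and C and holds a match to the FoxO motif GTAAACA at 125 bases before the start, a GC box at 92, a TATA box (TATAAA) at 58 and a TEAD motif (CATTCC) at 32, none of them overlapping. Among 32851 promoters of the same length, 35.7% held a GC box, 3.65% the FoxO motif, 13.6% the TATA box and 14.7% the TEAD motif. Neither window held AP-1 (TGANTCA, in 7.81% of promoters), the ATF/CRE core (TGACG, 20.8%), the NF-kB motif (8.46%), the SRF CArG box (1.63%) or the p53 half-site (8.36%). These are matches of letters in these windows only.

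Tnfrsf12a, the TWEAK receptor, stood at 1.09, 0.34, 0.32, -0.04 and 0.33 on the 5 soleus HLS arrays, against 3.74, 3.54, 3.97, 3.88 and 2.55 on the soleus control arrays. It stood at 0.93, 0.17, -0.04, 0.18 and 0.50 on the gastrocnemius HLS arrays, against 2.25, 4.12, 3.26, 2.68 and 2.83 on the gastrocnemius control arrays. Every HLS array of a muscle lay below every control array of that muscle, with soleus HLS 1 and gastrocnemius HLS 1 the highest HLS arrays, and the probe was well above background on all 20. All 10 control arrays lay above the 75th percentile of their array. In gastrocnemius the receptor fell by 2.68 ± 0.31 (adjusted p = 4.43e-05, limma), a 6.41-fold lower level, with a 95% interval of -3.32 to -2.04. Only 2 of the 25292 genes had a lower difference in that muscle. In soleus the difference was -3.13 ± 0.31, or 8.74-fold lower in HLS. The soleus change minus the gastrocnemius change was -0.45 ± 0.44, a gap close to its own error. In order of level, gastrocnemius HLS (0.35 ± 0.38, SD, n = 5) and soleus HLS (0.41 ± 0.41) were the lowest groups, below gastrocnemius control (3.03 ± 0.71) and soleus control (3.54 ± 0.57); the ranges of the HLS groups overlapped, as did those of the controls.

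**Figure D1:**
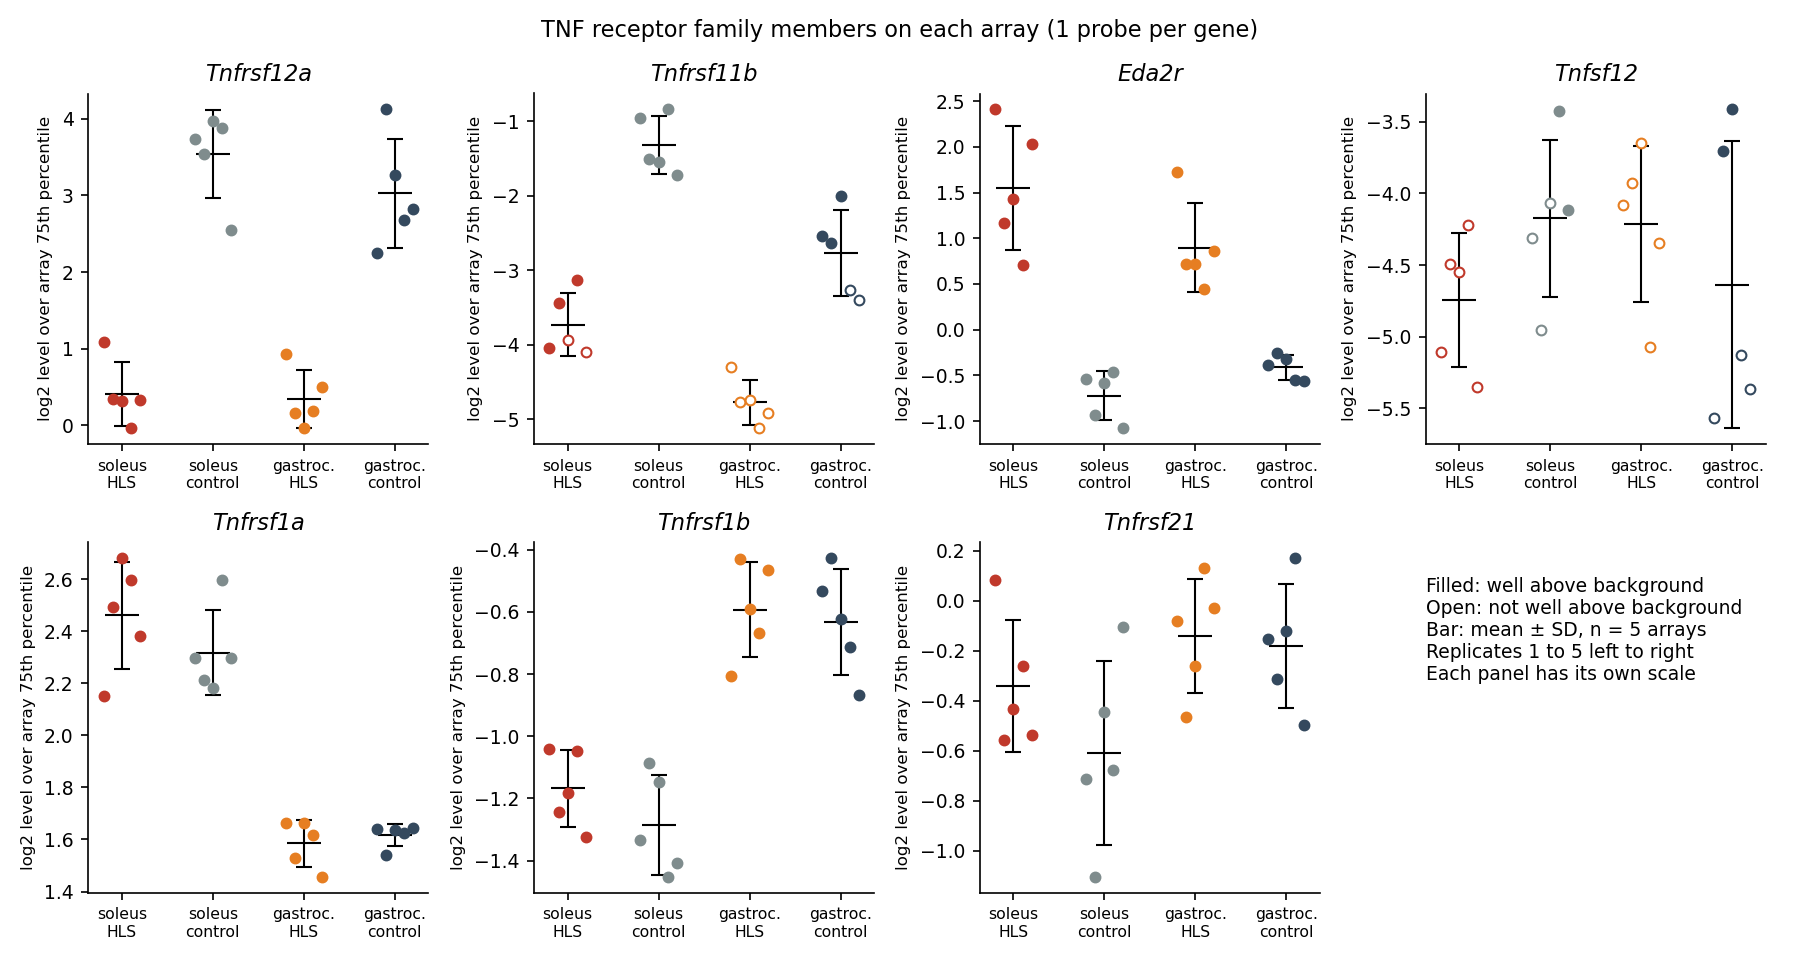
Log2 level over the array's 75th percentile of each gene, 1 panel per gene with its own scale, with soleus HLS, soleus control, gastrocnemius (gastroc.) HLS and gastrocnemius control from left to right. Each gene is drawn by its brightest kept probe, and Tnfsf12 by its only probe. Dimmer probes of Eda2r and Tnfrsf1b, which read otherwise in gastrocnemius, are not drawn. Points are arrays 1 to 5 from left to right, open where the probe was not well above background, and bars are the mean ± SD; the HLS points of Tnfrsf12a and Tnfrsf11b lie below all control points of the muscle, those of Eda2r lie above them, and the groups of Tnfrsf1a, Tnfrsf1b and Tnfrsf21 overlap within a muscle.

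Within slide 2 the gastrocnemius difference of Tnfrsf12a was -1.99, and within scan day 1 it was -2.10. With the slide or the scan day fitted as a block it no longer passed (adjusted p = 0.182 and 0.134, limma), with 1 HLS array to carry either comparison, while slide as a random block gave -2.70 (adjusted p = 2.34e-05). Within slide 5 the soleus difference was -1.97, and within scan day 2 it was -2.95.

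Tnfsf12, the ligand TWEAK, was at the edge of detection. Its single probe was well above background on 4 of the 20 arrays: soleus control 4 and 5 and gastrocnemius control 2 and 3. It stood between -5.35 and -4.22 on soleus HLS arrays, against -4.95 to -3.42 on soleus control arrays, and between -5.08 and -3.65 on gastrocnemius HLS arrays, against -5.57 to -3.41 on gastrocnemius control arrays. The probe missed the filter, which asked for 4 of 5 arrays of 1 group, so it was not tested; all ranges overlapped, and a difference in the ligand was not detectable at this signal. Of the 7 genes, 6 had a probe that passed the filter.

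Tnfrsf11b, the decoy receptor osteoprotegerin, stood at -4.04, -3.44, -3.94, -3.13 and -4.10 on soleus HLS arrays, against -0.96, -1.51, -1.55, -0.84 and -1.72 on soleus control arrays. It stood at -4.29, -4.77, -4.74, -5.12 and -4.92 on gastrocnemius HLS arrays, against -2.54, -2.63, -2.00, -3.27 and -3.40 on gastrocnemius control arrays. All HLS arrays again lay below the controls of their muscle. The probe was well above background on 3 soleus HLS, 5 soleus control, 0 gastrocnemius HLS and 3 gastrocnemius control arrays, so it was kept through the soleus controls alone. Because no gastrocnemius HLS array was well above background, the fold there is only a rough bound. It sets the mean of the controls against a mean over the HLS arrays. Each HLS array entered with its lowest signal well above background, or with the probe's own signal where that was higher. By this bound, which was not tested, the level was 1.60-fold lower in HLS. It is not a strict limit, since the mean of the controls holds gastrocnemius controls 4 and 5, which were not well above background. On gastrocnemius HLS 3 the lowest signal well above background was -3.64. There the dimmer probe of Tnfrsf1b, at -3.37, was still not well above background. The fitted difference was -2.00 ± 0.25 (adjusted p = 0.000113, limma). That difference and its p rest on HLS values not well above background. In soleus the difference was -2.41 ± 0.25, or 5.32-fold lower in HLS.

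Between the muscles, the decoy receptor stood higher in soleus than in gastrocnemius in all 5 control animals, by 1.45 ± 0.73 (mean difference within an animal ± SD, n = 5). Of the 5 gastrocnemius control arrays, 3 were well above background. The control muscles were on different slides and scan days, so this difference cannot be told apart from those. Among HLS animals no gastrocnemius value was well above background, and the signal allows no fold or direction between the muscles. Background handling moved the sizes: with normexp the difference was -1.18 in soleus and -0.73 in gastrocnemius (adjusted p = 0.0173, limma). Within slide 2 and scan day 1 the gastrocnemius difference was -1.40 and -1.52, and it did not pass with either as a block (adjusted p = 0.375 and 0.205, limma).

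Eda2r, the receptor of ectodysplasin A2, went the other way. Its brightest probe, A_52_P354844, stood at 2.41, 1.17, 1.43, 0.70 and 2.03 on soleus HLS arrays, against -0.54, -0.94, -0.59, -0.46 and -1.08 on soleus control arrays. It stood at 1.72, 0.72, 0.72, 0.45 and 0.86 on gastrocnemius HLS arrays, against -0.38, -0.25, -0.32, -0.54 and -0.57 on gastrocnemius control arrays. Every HLS array lay above every control array of its muscle, and HLS 1 was the highest HLS array in both. In gastrocnemius the receptor rose by 1.31 ± 0.26 (adjusted p = 0.00633, limma), which is 2.47-fold, with a 95% interval of 0.77 to 1.85. In soleus the difference was 2.27 ± 0.26, or 4.82-fold higher in HLS. The soleus change minus the gastrocnemius change was 0.96 ± 0.37, a description since it holds the soleus values used in the choice. That SE treats the 2 muscles of an animal as independent. The difference was 0.96 ± 0.20 with the animal as a block and 0.25 ± 0.48 with the scan day as a block. With arrays scaled to the spike-in RNA it was -0.11, where the median of all genes was -1.04, against 0.03 with the 75th percentile. Soleus was higher than gastrocnemius in all 5 HLS animals and in 1 of 5 control animals.

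The other probes of Eda2r were dimmer and differed from the first in gastrocnemius. Probe A_51_P161323 stood between -2.95 and -2.00 on soleus HLS arrays, against -4.52 to -3.04 on soleus control arrays, a difference of 1.53 ± 0.22 without overlap. In gastrocnemius the same probe stood between -2.87 and -2.18 on HLS arrays, against -3.19 to -2.84 on control arrays, a difference of 0.30 ± 0.22 (adjusted p = 0.604 over all kept probes, limma) with overlapping ranges. Probe A_52_P207163, well above background on 10 of 20 arrays, differed by 0.74 ± 0.21 in soleus and by 0.17 ± 0.21 in gastrocnemius (adjusted p = 0.804, limma). Those arrays were 5 soleus HLS, 3 soleus control, 1 gastrocnemius HLS and 1 gastrocnemius control, so the probe was kept through soleus HLS alone. All 3 probes thus lay higher in suspended soleus, while in gastrocnemius 1 of 3 passed. Over all 37373 kept probes the soleus groups did not overlap for 4.89%, and 2.81% passed in gastrocnemius. Since the choice of genes used the soleus contrast, nothing is read from the likeness of the probes in soleus. With the mean of its probes, Eda2r differed by 0.59 in gastrocnemius (adjusted p = 0.054, limma) and by 1.51 in soleus. The scanner files tie the probes to different transcript records, and their place in the gene is not given there. With the brightest probe the gastrocnemius difference was 2.20 within slide 2 and 2.13 within scan day 1, where the only HLS array was the highest of its group, and it did not pass with slide (adjusted p = 0.0884) or scan day (adjusted p = 0.0535) as a block.

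**Figure D2:**
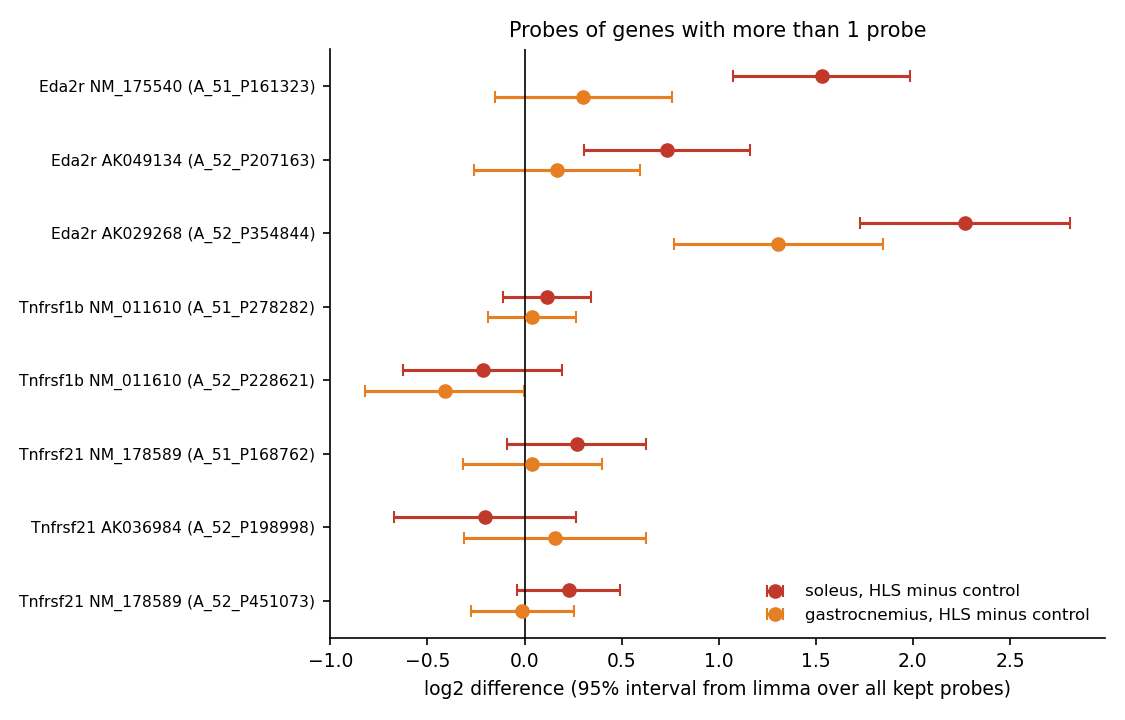
Log2 difference of each kept probe of Eda2r, Tnfrsf1b and Tnfrsf21, HLS minus control, in soleus (red) and gastrocnemius (orange); points are limma estimates and bars 95% intervals. The 3 Eda2r probes lie above 0 in soleus, and of them only A_52_P354844 has an interval clear of 0 in gastrocnemius, where its lower bound is 0.77.

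The receptors of TNF itself showed no difference that passed the test. Tnfrsf1a, the TNF receptor with a death domain, is read by 10 spots per array, whose SD within an array had a median of 0.075. It stood at 2.15, 2.49, 2.68, 2.60 and 2.38 on soleus HLS arrays, against 2.30, 2.21, 2.18, 2.60 and 2.30 on soleus control arrays. It stood at 1.66, 1.53, 1.66, 1.62 and 1.46 on gastrocnemius HLS arrays, against 1.64, 1.54, 1.64, 1.62 and 1.65 on gastrocnemius control arrays. The arms overlapped in both muscles, and the difference was 0.14 ± 0.10 in soleus and -0.03 ± 0.10 in gastrocnemius (adjusted p = 0.942, limma; 95% interval -0.25 to 0.18). The muscles were farther apart than the arms: soleus exceeded gastrocnemius by 0.88 ± 0.10 in HLS and by 0.70 ± 0.10 in controls, without overlap and in each of the 10 animals; the muscles did not overlap for 17.7% of all genes in HLS and for 21.6% in controls. Spike-in scaling moved the median of all genes between control muscles to 1.03, against -0.05 with the 75th percentile, and Tnfrsf1a there to 1.78. The muscles were on different slides, so muscle and slide cannot be told apart here.

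Tnfrsf1b, the TNF receptor without a death domain, stood between -1.32 and -1.04 on soleus HLS arrays, against -1.45 to -1.09 on soleus control arrays, and between -0.81 and -0.43 on gastrocnemius HLS arrays, against -0.87 to -0.43 on gastrocnemius control arrays, by its brighter probe. The difference was 0.12 ± 0.11 in soleus and 0.04 ± 0.11 in gastrocnemius (adjusted p = 0.930, limma; 95% interval -0.18 to 0.26). By this probe soleus lay below gastrocnemius by 0.65 ± 0.11 in controls, a sign that turned (0.43) with scaling to the spike-in RNA. The dimmer probe, A_52_P228621, put soleus above gastrocnemius by 0.86 ± 0.20 in controls, so the 2 probes of Tnfrsf1b disagree on the muscles, although both carry the same transcript record. The dimmer probe stood between -3.79 and -3.37 on gastrocnemius HLS arrays, against -3.30 to -2.91 on control arrays, and did not pass (-0.41 ± 0.20, adjusted p = 0.346, limma); it was well above background on 1 of those 5 HLS arrays.

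Tnfrsf21, death receptor 6, stood between -0.56 and 0.08 on soleus HLS arrays, against -1.10 to -0.10 on soleus control arrays, and between -0.47 and 0.13 on gastrocnemius HLS arrays, against -0.50 to 0.17 on gastrocnemius control arrays. The arms overlapped, with a difference of 0.27 ± 0.17 in soleus and 0.04 ± 0.17 in gastrocnemius (adjusted p = 0.959, limma; 95% interval -0.32 to 0.40). Its other probes differed by -0.20 ± 0.23 and 0.23 ± 0.13 in soleus and by 0.16 ± 0.23 and -0.01 ± 0.13 in gastrocnemius.

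Of the 6 genes with a kept probe, 3 passed in gastrocnemius, 2 lower and 1 higher, where 3.17% of all 25292 genes passed. These are the 3 genes that stood out in the soleus differences used for the choice. Nothing is therefore read from this count about the family. Of the 2 lower genes, Tnfrsf11b was kept through soleus controls alone and was not well above background on any gastrocnemius HLS array. The groups did not overlap for the same 3 genes, against 7.43% of all genes in that muscle. In soleus the groups did not overlap for 3 of the 6, where the figure over all genes was 5.07%; since the choice of genes used that contrast, nothing is read from it. Both gastrocnemius falls and the rise kept their direction with arrays scaled to the spike-in RNA (Tnfrsf12a -1.88, Tnfrsf11b -1.20, Eda2r 2.11). Under that scaling the median of all genes in gastrocnemius was 0.82, against 0.01 with the 75th percentile, and Tnfrsf1a, Tnfrsf1b and Tnfrsf21 stood near it at 0.77, 0.85 and 0.85.

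**Figure D3:**
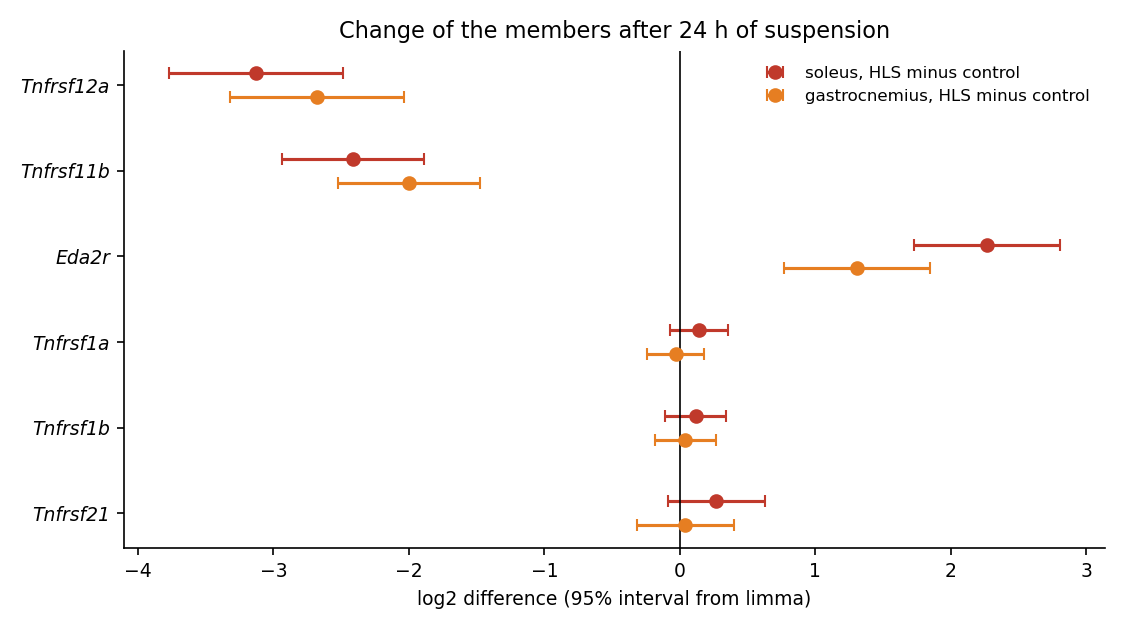
Log2 difference, HLS minus control, of the 6 genes with a kept probe, each read by its brightest, in soleus (red, a description) and gastrocnemius (orange, tested). Points are limma estimates and bars 95% intervals. Tnfrsf12a and Tnfrsf11b lie below 0 and Eda2r above it in both muscles, while the intervals of Tnfrsf1a, Tnfrsf1b and Tnfrsf21 hold 0.

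The rest of the pathway was followed through 5 lists without the genes above: TNF superfamily ligands, other receptors, adaptors and death domain proteins, NF-kB kinases with their subunits and inhibitors, and cytokine and adhesion genes induced by NF-kB. In soleus 2 of their 85 measured genes rose and 3 fell, or 5.88%, against 5.95% of all genes, with a median difference of 0.04 against 0.05 over all genes. In gastrocnemius 2 rose and 3 fell, again 5.88%, against 3.17%, with a median of -0.01 against 0.01. The soleus share is near that of all genes, and the gastrocnemius share rests on 5 genes. For a difference of the HLS change between muscles, 0 of the 85 passed (limma; 4 at an unadjusted p under 0.05); over all genes 2 passed, or 0.00791%. With the slide as a block none of the calls in these lists held in either muscle (limma, adjusted p of 0.472 to 0.957 in gastrocnemius and 0.102 to 0.855 in soleus), and with the scan day none did in gastrocnemius (0.402 to 0.931).

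Among the ligands, 0 of 16 passed in either muscle (limma), with 1 of 16 at an unadjusted p under 0.05 in each. The nearest was Tnfsf13 (APRIL), at 0.22 ± 0.10 in soleus (adjusted p = 0.219) and 0.32 ± 0.10 in gastrocnemius (adjusted p = 0.0789). Eda, which encodes the ligand of Eda2r, differed by 0.40 ± 0.20 in soleus (adjusted p = 0.315), and Tnfsf10 (TRAIL), a ligand of the decoy receptor, by -0.28 ± 0.16 in gastrocnemius (adjusted p = 0.461). Eda was near background: on soleus control 3 it stood at -4.37, where the lowest signal well above background was -3.97.

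Of 21 other receptors, 1 passed in each muscle. Ngfr, the neurotrophin receptor p75, stood at 0.08, -0.31, -0.59, -0.60 and -0.16 on soleus HLS arrays, against -1.39, -1.33, -1.07, -1.28 and -1.63 on soleus control arrays, and rose by 1.02 ± 0.18 (adjusted p = 0.00107, limma). In gastrocnemius it stood at -0.36, 0.34, 0.05, -0.65 and 0.14 on HLS arrays, against -1.17, -1.33, -1.05, -0.68 and -0.93 on control arrays, and rose by 0.94 ± 0.18 (adjusted p = 0.00463, limma). The arms did not overlap in either muscle. The difference was 0.57 in soleus with the mean of its probes (adjusted p = 0.0227, limma), and 0.53 in gastrocnemius with the slide as a block. Schwann cells, which express Ngfr after nerve injury, were read by 6 markers, of which 0 passed and all 6 stood lower in HLS of both muscles (1 of 6 in soleus and 0 of 6 in gastrocnemius at an unadjusted p under 0.05, limma). Their summed log2 level was 4.40 to 6.16 in soleus HLS, against 4.49 to 6.57 in soleus control, and 4.94 to 7.15 in gastrocnemius HLS, against 5.85 to 6.96 in gastrocnemius control.

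Of 17 adaptors and death domain proteins, 2 passed in each muscle. Traf3, an adaptor that restrains the non-canonical NF-kB route, stood at 0.57, 0.47, 0.03, 0.39 and 0.06 on soleus HLS arrays, against 1.10, 0.75, 1.37, 1.08 and 1.58 on soleus control arrays, and fell by 0.87 ± 0.14 (adjusted p = 0.000577, limma). In gastrocnemius it stood between 0.02 and 0.33 on HLS arrays, against 0.74 to 1.18 on control arrays, and fell by 0.80 ± 0.14 (adjusted p = 0.0029, limma), a difference that was 0.01 with arrays scaled to the spike-in RNA. Traf4, another TRAF adaptor, rose by 0.55 ± 0.12 in soleus (adjusted p = 0.00938, limma), but its ranges overlapped, and it did not pass with the mean of its probes (adjusted p = 0.206), in a fit to the 10 soleus arrays (0.0766) or with spike-in scaling (0.28, adjusted p = 0.242). Tank, which binds TRAF proteins, fell by 0.40 ± 0.10 in gastrocnemius (adjusted p = 0.0293, limma), but it stood at 0.41 with spike-in scaling, -0.14 with the slide and -0.17 with the scan day as a block, and did not pass with the gastrocnemius arrays alone (adjusted p = 0.0634). Leaving out any of 6 single arrays took the adjusted p to between 0.0673 and 0.0922. Under spike-in scaling the median of all genes was 0.82 in gastrocnemius and -0.21 in soleus.

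Of 18 NF-kB kinases, subunits and inhibitors, 1 passed in soleus and 2 in gastrocnemius. Nfkbia, the inhibitor IkB alpha and itself an NF-kB target, stood at 3.27, 2.93, 3.70, 3.78 and 3.98 on gastrocnemius HLS arrays, against 2.81, 2.60, 2.84, 2.75 and 2.66 on control arrays. It rose by 0.80 ± 0.19 (adjusted p = 0.022, limma), without overlap, and lost the call without gastrocnemius HLS 3, 4 or 5 or without control 2 or 5 (adjusted p up to 0.0729); with the slide as a block it was 0.52. Tab1, a partner of the kinase TAK1, fell by 0.44 ± 0.11 in soleus (adjusted p = 0.0189) and by 0.42 ± 0.11 in gastrocnemius (adjusted p = 0.0411, limma). With spike-in scaling it stood at 0.38 in gastrocnemius, where the median of all genes was 0.82. Leaving out any 1 gastrocnemius array took its adjusted p there to between 0.0566 and 0.119, and soleus HLS 1, soleus HLS 5 or soleus control 4 left out took it to between 0.0522 and 0.0585 in soleus. In soleus it did not pass either in a fit to the 10 arrays of that muscle (adjusted p = 0.144) or with the scan day as a block (0.0502).

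Of 13 cytokine and adhesion genes, 1 passed in soleus and 0 in gastrocnemius (limma; 6 and 3 at an unadjusted p under 0.05). Vcam1, an adhesion protein of activated endothelium, stood at -1.06, -0.75, -0.73, -0.61 and -1.22 on soleus HLS arrays, against -0.22, -0.71, 0.02, 0.19 and -0.01 on soleus control arrays. It fell by 0.73 ± 0.15 (adjusted p = 0.00453, limma), and soleus control 2 lay within the range of the HLS arrays. With the mean of its probes it was -0.28 (adjusted p = 0.098), and with the soleus arrays alone the adjusted p was 0.0501 (limma). In gastrocnemius the lowest p were those of the chemokine gene Ccl2 (-0.44 ± 0.16, adjusted p = 0.175) and of the adhesion gene Icam1 (-0.42 ± 0.18, adjusted p = 0.241, limma). The medians of the 13 genes were 0.04 in soleus and -0.10 in gastrocnemius, against 0.05 and 0.01 over all genes.

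**Figure D4:**
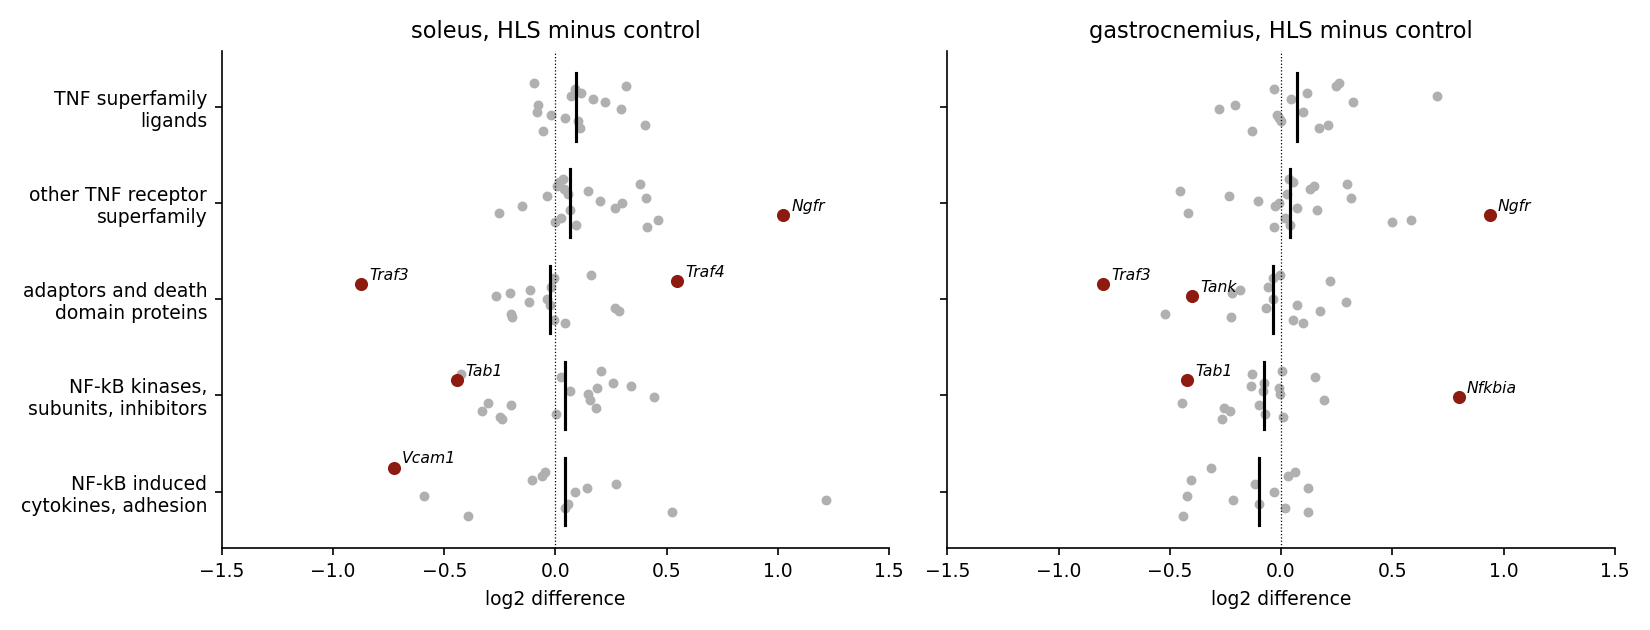
Log2 difference, HLS minus control, of 85 pathway genes in 5 lists, with soleus on the left and gastrocnemius on the right; each point is a gene, red where it passed the test, and vertical bars are list medians. Ngfr, at 1.02 and 0.94, and Traf3, at -0.87 and -0.80, are the named genes farthest from 0 on each side among those that passed.

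Markers of other cells are given because whole muscle was sampled, and fewer cells of a type and less RNA per cell cannot be told apart. Of 10 macrophage and leucocyte markers 0 passed in either muscle (limma; 1 of 10 at an unadjusted p under 0.05 in each), and their summed log2 level was 4.64 to 6.42 in soleus HLS, against 5.16 to 6.17 in soleus control, and 5.03 to 5.60 in gastrocnemius HLS, against 5.03 to 5.48 in gastrocnemius control. Smooth muscle and pericyte markers included Cspg4, which fell in both muscles (-0.60 ± 0.11, adjusted p = 0.00143 in soleus, and -0.40 ± 0.11, adjusted p = 0.0472 in gastrocnemius, limma), and Tagln, which fell in soleus (-1.20 ± 0.22, adjusted p = 0.00199, limma). Of the 7 smooth muscle and pericyte markers, 2 stood higher and 5 lower in soleus HLS, and 0 higher and 7 lower in gastrocnemius HLS. The summed log2 level of those 7 markers was 7.74 to 8.34 in soleus HLS, against 7.73 to 8.49 in soleus control, and 7.90 to 8.15 in gastrocnemius HLS, against 8.01 to 8.33 in gastrocnemius control. Of 7 tendon markers, Scx fell in soleus (-0.78 ± 0.16, adjusted p = 0.00403) and in gastrocnemius (-0.75 ± 0.16, adjusted p = 0.0101, limma), and their summed level was 6.26 to 7.04 in soleus HLS, against 6.62 to 6.98 in soleus control, and 5.94 to 6.39 in gastrocnemius HLS, against 6.29 to 6.53 in gastrocnemius control. Of the 7 tendon markers, 1 stood higher and 6 lower in soleus HLS, and 2 higher and 5 lower in gastrocnemius HLS. The part of cells bearing these markers in the falls of Tnfrsf12a and Tnfrsf11b was not tested. Only 1 further marker passed in gastrocnemius, the endothelial gene Kdr (-1.12 ± 0.27, adjusted p = 0.0227, limma). Of the 8 endothelial markers, 3 stood higher and 5 lower in HLS of that muscle. Another 2 passed in soleus, the fibroblast gene Mfap5 (-0.99 ± 0.18, adjusted p = 0.00121) and the satellite cell gene Cdh15 (0.47 ± 0.12, adjusted p = 0.0178, limma). Of 8 fibroblast markers, 3 stood higher and 5 lower in soleus HLS, and of 4 satellite cell markers 3 stood higher and 1 lower. For each of these lists, the summed levels of HLS and control arrays overlapped in the muscle named.

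Both muscles of an animal can be set side by side. For Tnfrsf12a, HLS 1 was the highest HLS animal in both muscles. Soleus minus gastrocnemius was 0.06 ± 0.25 in HLS animals and 0.51 ± 0.90 in control animals (mean ± SD, n = 5), with soleus higher in 3 of 5 animals of either arm. For Eda2r the same difference was 0.65 ± 0.34 in HLS animals and -0.31 ± 0.30 in control animals, and the order of HLS animals 1, 5 and 4 was the same in both muscles, with 1 the highest and 4 the lowest.

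**Figure D5:**
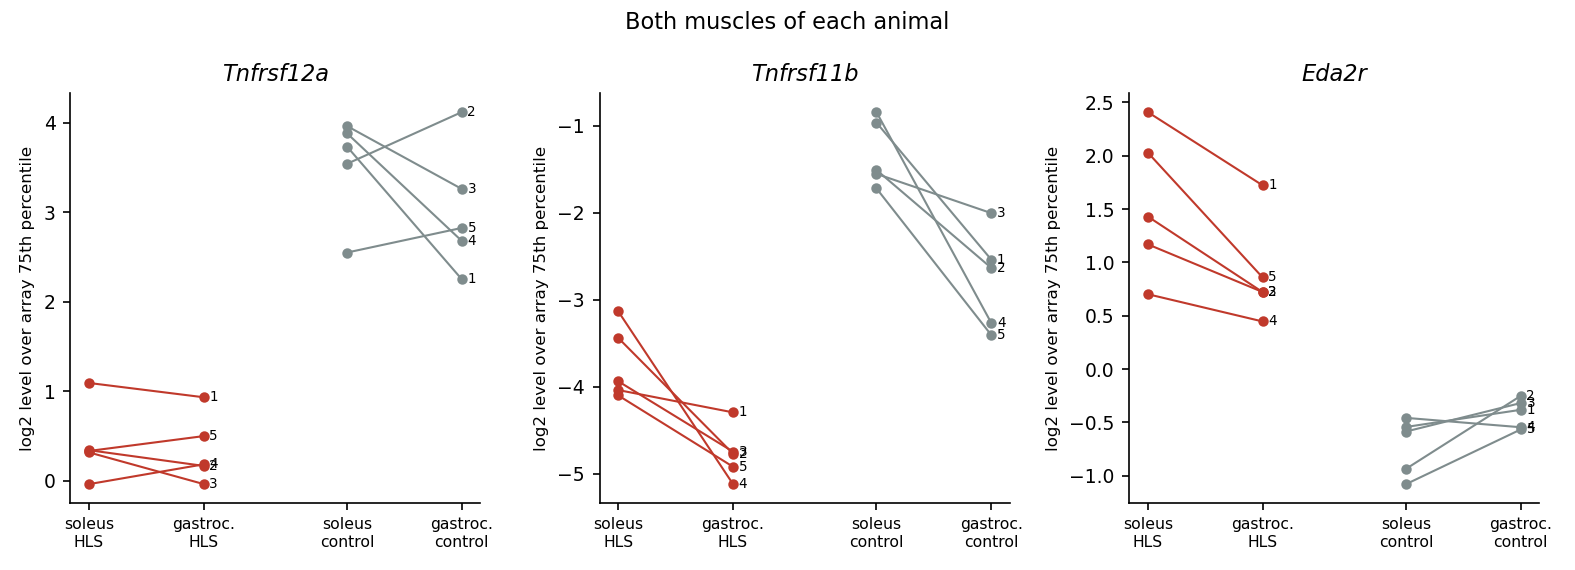
Log2 level over the array's 75th percentile of Tnfrsf12a, Tnfrsf11b and Eda2r in both muscles of each animal, HLS animals on the left in red and control animals on the right in grey; lines join the muscles of an animal, numbered beside its gastrocnemius. Every control line of Tnfrsf11b slopes down towards gastrocnemius, as does every HLS line of Eda2r; the gastrocnemius HLS points of Tnfrsf11b were not well above background.

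The genes whose levels ran most like those of the 3 receptors over the 20 arrays were named by Pearson's r, as a description: the arrays share the group differences, so any gene with a like change in both muscles scores high. For Tnfrsf12a they were Atf3, a stress-induced transcription factor (r = 0.96), Foxs1, a forkhead factor (0.95), Rcan1, a calcineurin inhibitor (0.95), Hspa5, an endoplasmic reticulum chaperone (0.95), and Xirp1, an actin-binding protein of striated muscle (0.94). For Tnfrsf11b they were Msl3, Arhgef12, Cnnm4 and Dnajb4 (each 0.96) and Nfe2l1 (0.95). For Eda2r they were the amino acid transporter Slc43a1 (0.95), Depp1 (0.93), the histone deacetylase Hdac4 (0.93), H6pd (0.92) and the growth-arrest gene Gadd45a (0.91). Spearman's rho for these 15 genes ran between 0.79 and 0.96.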

How the data were processed

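The authors' files hold spot intensity from Agilent Feature Extraction 9.1.3.1 on a linear scale, per the file headers, without scaling between arrays; a test by the authors is not described in the labels. The deposited series table equalled that intensity within 0.497% (linear, uncentred, column medians 141 to 311) and served as an alternative. From the deposited intensity, uneven spots were left out, values were divided by each array's 75th percentile over non-control spots and taken to log2, and spots of a probe were averaged. Probes well above background on at least 4 of 5 arrays of 1 group were kept, each gene being read by its brightest kept probe. A means model of the 4 groups over 20 arrays was fitted with limma 3.58.1 in R 4.3.3 and checked on simulated data; tests are two-sided. All spots of 1 gene symbol in the scanner files were taken for the 7 genes, and other probes were named through RefSeq. Alternatives were background correction, scaling, dim-probe filter, probe summary, slide and scan day, replicate blocks and single arrays left out.

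The genes and lists were chosen with earlier results of these data known. Named were all 7 genes, up to 2 passing genes at each end of a list (the 2 lowest p where none passed) and the 5 genes most alike in pattern. Per the source names in the labels, an animal number joins both muscles of an animal, while HLS and control animals are different mice; deviations of the 2 muscles correlated at -0.344 to 0.169 over 10 animals. The level of E1A spike-in probes (mean ± SD, n = 5) was 1.88 ± 0.21 in soleus HLS, against 1.61 ± 0.04 in soleus control, and 1.89 ± 0.14 in gastrocnemius HLS, against 2.69 ± 0.09 in its control.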

Additional observations from a re-analysis of the deposited data

Results flagged for a closer look

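Of 96 groups of 5 arrays, 5 held a single array far from the other 4 by Dixon's test; chance gives about 1 in 20 groups, so the number is about that of chance. Eda2r probe A_52_P207163 stood at -3.11 on gastrocnemius control 1, against -4.20 to -4.03 on the other control arrays. Tnfrsf1a stood at 1.54 on gastrocnemius control 2, against 1.62 to 1.65, and at 2.60 on soleus control 4, against 2.18 to 2.30. Tank stood at 1.25 on gastrocnemius HLS 1, against 0.92 to 1.00, and Vcam1 at -0.63 on gastrocnemius control 1, against -0.46 to -0.43. Gastrocnemius HLS 1 is the only HLS array of its slide. The causes were not tested.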

How the results depend on the processing

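Tnfrsf12a, Tnfrsf11b and Eda2r kept their direction in both muscles under every alternative that gave them a value, among them normexp, quantile normalization, no filter, the series table, spike-in scaling and each array left out. Tnfrsf11b had no value with only probes well above background on all arrays, since its probe was so on 11 of 20. With scan day as a block the gastrocnemius values were -2.10 for Tnfrsf12a, -1.52 for Tnfrsf11b and 2.13 for Eda2r, with slide -1.99, -1.40 and 2.20, and none of the 3 passed (0 members); the soleus values with slide were -1.97 for Tnfrsf12a and 2.75 for Eda2r. These blocks rest on 1 HLS array in gastrocnemius and on 1 control array in soleus slide 5. The mean of probes gave Eda2r 0.59 in gastrocnemius and 1.51 in soleus, and normexp gave Tnfrsf11b -1.18 in soleus. Scaling to spike-in RNA turned the gastrocnemius differences of Tab1 (0.38), Tank (0.41), Traf3 (0.0052) and Tnfrsf1a (0.77), and with it 6 members passed there. The median of all genes in gastrocnemius was 0.82 under that scaling. Genes passing in gastrocnemius, 801 of all, numbered 23703 with spike-in scaling, 16 with scan day, 10 with slide and 444 to 663 with 1 array left out (444 without control 2, 499 without HLS 5). Those in soleus, 1504, numbered 705 with the arrays of 1 muscle only, 3319 with spike-in scaling, 776 with scan day, 22 with slide and 1059 to 1532 with 1 array left out. The pathway count of 5 in gastrocnemius became 8 with 1 muscle only, 76 with spike-in scaling, 0 with scan day or slide and 2 to 4 with 1 array left out (2 without control 2 or HLS 3, 4 or 5), and that of 5 in soleus became 2 with 1 muscle only, 3 with the mean of probes, 14 with spike-in scaling, 0 with slide and 4 to 6 with 1 array left out. The causes of these moves were not tested. A replicate block by number, which joins different mice, left the gastrocnemius values at -2.68 for Tnfrsf12a (adjusted p = 0.000209), -2.00 for Tnfrsf11b and 1.31 for Eda2r and called 820 genes there and 1502 in soleus, and a replicate block by animal left the difference of the HLS changes at 0.96 for Eda2r. Signal near background limits Tnfsf12, Eda, Tnfrsf11b in gastrocnemius and the dim probes of Eda2r and Tnfrsf1b.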
